A study of Mus musculus with 4 samples.

Results

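*Itgam*, *Cd177*, *Cd300lf*, *Ceacam1* and *Lyn* are 5 genes of neutrophil and myeloid adhesion and signalling that stand in a table of mRNAs higher in MRL/lpr than in B6 splenic CD4+ T cells. They were chosen by name and function from the 440 genes of that table, so they were also selected on the ratio that put a gene there, MRL/lpr over B6. Together with a table of 212 lower mRNAs, 652 genes were listed. The B6 group was, by the sample labels, 1 female C57BL/6J mouse of 16 weeks, although the design text speaks of 2 B6 mice. The MRL/lpr group was 1 female mouse of the lupus-prone strain that the labels write MRL/lpr-Tnfrsf6lpr, also of 16 weeks, which carries the *lpr* mutation of the death receptor gene *Fas* on the MRL background, which is not that of the B6 mouse. T cells were enriched from spleen by negative selection on magnetic beads, and the labels name no treatment. Each strain gave 1 mRNA library and 1 small RNA library, so no replicate error and no test between strains can be had. The *lpr* mutation, the MRL background, the disease and the individual mouse cannot be told apart, and neither can a larger number of cells of a type and more RNA per cell.

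Leukocytes leave the blood by binding the vessel wall through integrins, and *Itgam* encodes the αM chain (CD11b) that pairs with the β2 chain to form the complement receptor CR3 of neutrophils, monocytes and macrophages. *Cd177* encodes a surface glycoprotein of neutrophils. *Cd300lf* and *Ceacam1* encode immunoglobulin-type receptors whose cytoplasmic tails carry inhibitory tyrosine motifs, to which phosphatases are recruited once a kinase has phosphorylated them. *Lyn* encodes a Src family kinase of myeloid and B cells that phosphorylates such motifs, and mice without it develop autoimmune disease. Some of these genes are also known outside myeloid cells: *Ceacam1* is made by epithelia and activated T cells, and CD11b is found on NK cells.

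In the authors' table each of the 5 mRNAs is paired with 1 miRNA that was lower in MRL/lpr and is predicted to target it. A miRNA pairs with its targets mainly through its seed, bases 2 to 8, shown here in capitals. The mature sequences of 2 of the 4 paired miRNAs are given from RefSeq (GRCm38.p6) because they name the pairs of 3 of the 5 genes. MiR-125a-5p, the partner of *Cd300lf* and *Ceacam1*, lies on the plus strand of chr17:17830817-17830840, and miR-423-5p, the partner of *Cd177*, on the minus strand of chr11:77078122-77078144.
miR-125a-5p: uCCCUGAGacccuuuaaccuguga
miR-423-5p: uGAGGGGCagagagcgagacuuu
*Itgam* is paired with miR-466d-3p and *Lyn* with miR-150-5p. No seed is shared among the 4 miRNAs.

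*Itgam* had 1.71 FPKM in the B6 and 28.1 FPKM in the MRL/lpr library, where FPKM, the unit the deposited values are taken to have, is a fragment number scaled for transcript length and library size. The MRL/lpr library was thus 16.5-fold higher (log2 ratio 4.04), a difference of 26.4 FPKM. *Itgam* (gene ID 16409) lies on chromosome 7 from 128062640 to 128118491. By ratio it was 32 among the 440 higher mRNAs, between *Lpl* (16.9-fold) and *Dram1* (16.4-fold), and by its MRL/lpr level it was 38. The levels of *Lpl* and *Dram1* were far lower, at 1.78 and 3.82 FPKM in MRL/lpr. Their ratios therefore rest on less signal than that of *Itgam*.

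*Cd177* had 0.449 FPKM in the B6 and 48.4 FPKM in the MRL/lpr library, so that it was behind *Lyn*, *Cd300lf* and *Itgam* in B6 and ahead of them in MRL/lpr. The ratio was 108 (log2 ratio 6.75) and the difference 47.9 FPKM, the largest of the 5 on each scale. *Cd177* (gene ID 68891) lies on chromosome 7 from 24743983 to 24760311. By ratio it was 5 among the 440 higher mRNAs. The gene next above it, *Plcb1*, was 134-fold higher but reached only 0.570 FPKM in MRL/lpr, and the gene next below it, *Nrg1*, was 87.1-fold higher and reached 2.65 FPKM. *Cd177* thus had far more signal in MRL/lpr than either neighbour, and its B6 value lay close to the median of the higher mRNAs, 0.422 FPKM.

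Of the receptors with inhibitory motifs, *Cd300lf* was the more abundant and *Ceacam1* had the higher ratio. *Cd300lf* (gene ID 246746, chromosome 11 from 115116214 to 115133992) had 2.31 FPKM in the B6 and 9.16 FPKM in the MRL/lpr library, a ratio of 3.97 and a log2 ratio of 1.99. This lies at the middle of the table, at 221 of 440, beside a median ratio of 3.98 over all higher mRNAs. *Ceacam1* (gene ID 26365, chromosome 7 from 25461702 to 25477625) had 0.365 FPKM in the B6 and 3.80 FPKM in the MRL/lpr library, a ratio of 10.4 and a log2 ratio of 3.38, at 55 by ratio. It was the lowest of the 5 genes in both libraries. The level of *Cd300lf* was 6.32 times that of *Ceacam1* in B6 and 2.41 times in MRL/lpr.
Both receptor genes have relatives next to them. The table gives for each a second region, its locus entry, that is wider than the gene. For *Ceacam1* that region spans 187 kb and the gene 15.9 kb, and for *Cd300lf* it spans 70.8 kb and the gene 17.8 kb. For *Itgam* (55.9 kb), *Cd177* (16.3 kb) and *Lyn* (113 kb) the region and the gene have the same length. RefSeq places the close relative *Ceacam2* beside *Ceacam1*, and 11 further protein-coding *Cd300* genes are on the chromosome of *Cd300lf*. *Itgam* has the related integrin genes *Itgax* and *Itgad* beside it. How reads were split between relatives is not given in the sources used here, so the levels of these 3 genes are uncertain to that extent. None of the relatives named is in either table.

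*Lyn* had 4.03 FPKM in the B6 and 20.9 FPKM in the MRL/lpr library. It was the most abundant of the 5 genes in B6 and stood behind *Cd177* and *Itgam* in MRL/lpr. The ratio was 5.19 (log2 ratio 2.37) and the difference 16.9 FPKM. *Lyn* (gene ID 17096) lies on chromosome 4 from 3678121 to 3791612. By ratio it was 147 among the 440 higher mRNAs, and by its MRL/lpr level it was 50.

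**Figure D1:**
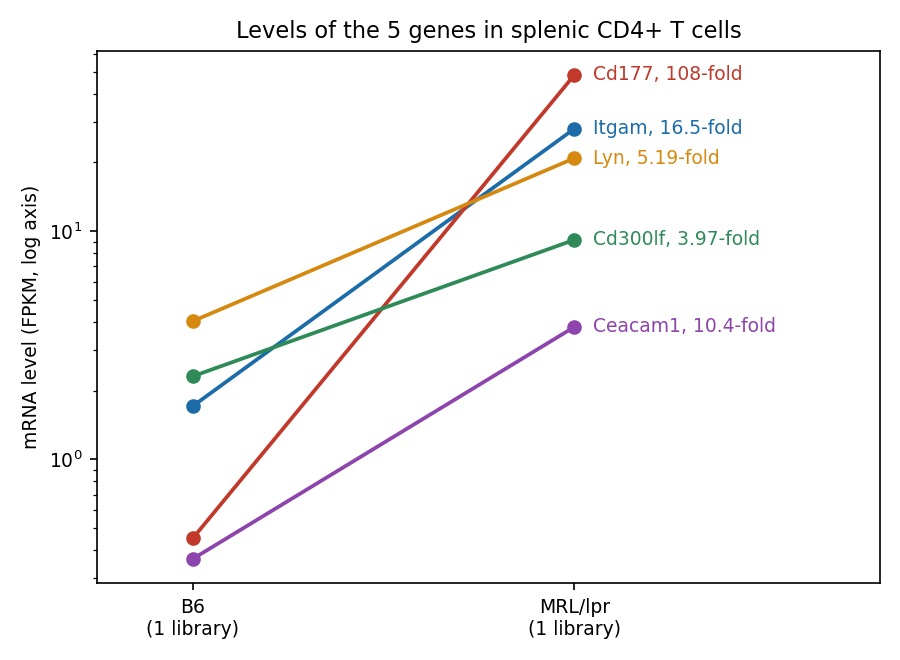
Levels of the 5 genes in FPKM (vertical log axis) in the B6 and the MRL/lpr library, 1 point per library, with the ratio beside each line. The lines of *Cd177* and *Itgam* cross that of *Lyn*, since *Cd177* goes from 0.449 to 48.4 FPKM and *Lyn* from 4.03 to 20.9 FPKM.

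The 5 genes did not keep their proportions between the libraries. In B6 the order of the levels was *Lyn*, *Cd300lf*, *Itgam*, *Cd177* and *Ceacam1*. In MRL/lpr it was *Cd177*, *Itgam*, *Lyn*, *Cd300lf* and *Ceacam1*. With 1 library per strain, the spread that would show whether neighbours in either order differ is not known. The summed level was 8.86 FPKM in the B6 and 110 FPKM in the MRL/lpr library, a ratio of 12.5.
*Lyn* made up 45.5% of the B6 sum and 18.9% of the MRL/lpr sum. *Cd177* made up 5.07% and 43.9%, and *Itgam* 19.3% and 25.5%. The share of *Cd300lf* was 26.1% in B6 and 8.30% in MRL/lpr. That of *Ceacam1* was 4.12% and 3.44%. The share of *Cd177* thus differed most between the libraries, and that of *Ceacam1* least. Against *Lyn*, *Itgam* was 0.424 times as abundant in B6 and 1.35 times in MRL/lpr, and *Cd177* against *Itgam* was 0.263 and 1.72 times as abundant.

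Of the 5 genes, 4 were at least 4-fold higher in MRL/lpr, beside 49.8% of all 440 higher mRNAs, and 3 were at least 10-fold higher, beside 12.5%. *Cd300lf*, at 3.97-fold, lay just outside the 4-fold limit, and *Ceacam1*, at 10.4-fold, just inside the 10-fold one. Nothing is read from these shares, since the genes were picked from this contrast. The median ratio of the 5 genes was 10.4. All 5 lay above the median level of the table in MRL/lpr, which was 2.23 FPKM. In B6 the median was 0.422 FPKM, and *Ceacam1* alone of the 5 lay below it. By MRL/lpr level among the 440 higher mRNAs, *Cd177* was 22, *Itgam* 38, *Lyn* 50, *Cd300lf* 116 and *Ceacam1* 178. Nothing is read from these ranks either.

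**Figure D2:**
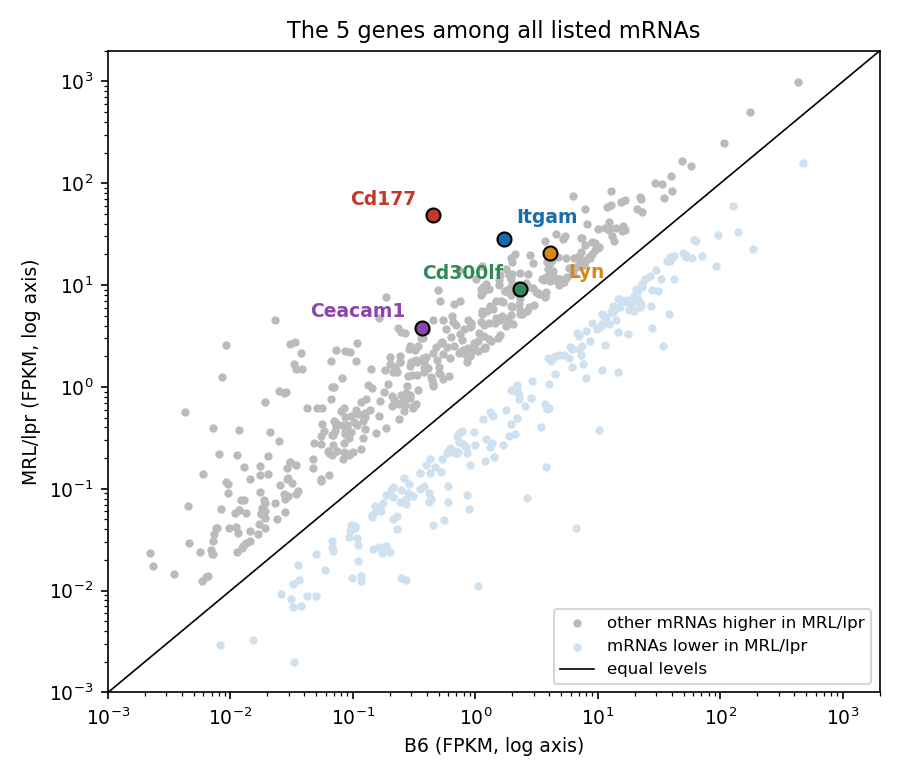
B6 level (horizontal, FPKM, log axis) against MRL/lpr level (vertical, FPKM, log axis) of the 652 listed mRNAs, 1 point per gene, with the 5 genes in colour and a line of equal levels. The band between the grey and blue points is empty because only genes with at least a 2-fold difference were listed, and *Cd177* stands apart from the higher mRNAs of like B6 level.

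**Figure D3:**
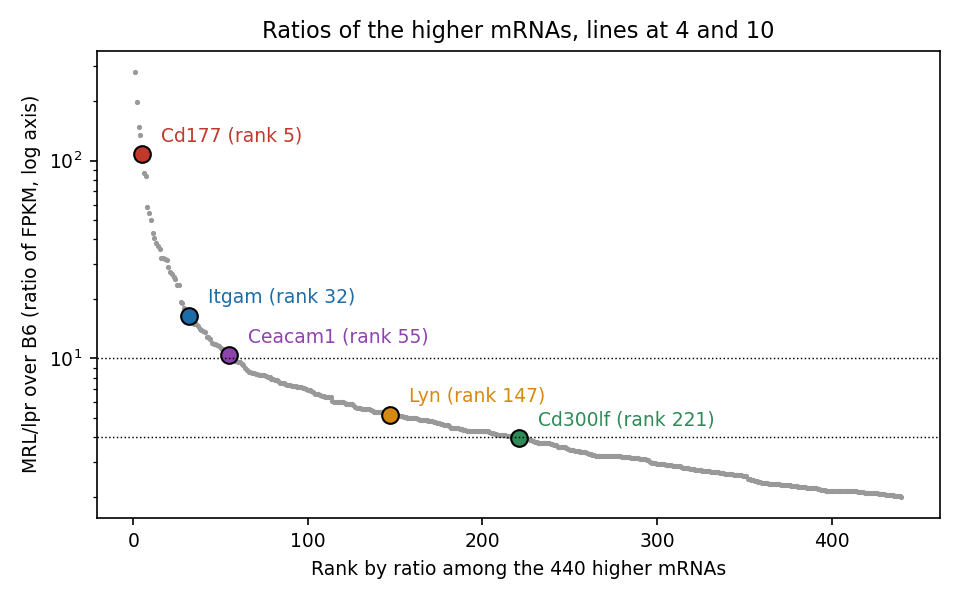
Ratio of MRL/lpr over B6 (vertical log axis) of the 440 higher mRNAs in order of rank, with dotted lines at 4 and 10. *Cd177* is at rank 5, *Itgam* at 32, *Ceacam1* at 55, *Lyn* at 147 and *Cd300lf* at 221.

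For each gene, the 2 higher mRNAs nearest to it in the log2 levels of both libraries were looked up. *Lyn* had the closest neighbour of the 5 genes: *Cd200*, which encodes a surface ligand of an inhibitory receptor on myeloid cells, had 4.09 and 21.1 FPKM, a distance of 0.03 on the log2 scale. The second was *Plod3*, at 0.27. Near *Cd300lf* were *Mesdc1* (0.12) and *C330027C09Rik* (0.13), and near *Ceacam1* were *Lrrk2* (0.16) and *Bcl2l15* (0.32). *Itgam* had *Prelid2* (0.56) and *Fgl2* (0.65) nearest, the second of which encodes a fibrinogen-like protein made by macrophages and T cells.
*Cd177* had no close neighbour. The nearest were *Aldh1a1*, with 0.728 and 13.9 FPKM at a distance of 1.93, and *Itgam* itself at 2.08. The likeness rests on 2 values per gene.

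The paired miRNAs differed more in abundance than in their ratio between strains. MiR-150-5p, the partner of *Lyn*, is known from mature lymphocytes. It had 359766 reads in the B6 library, or 10696 RPM (reads scaled to the trimmed reads of the library), against 69252 reads or 2311 RPM in the MRL/lpr library. MiR-150-5p was 4.63-fold lower, with an exact Clopper-Pearson 95% interval of 4.59 to 4.67 that covers counting error only. MiR-423-5p, the partner of *Cd177*, had 11087 reads (329.6 RPM) in the B6 library against 3653 reads (122 RPM) and was 2.70-fold lower (95% interval 2.60 to 2.81).
MiR-125a-5p had 1966 reads (58.5 RPM) in the B6 library against 300 reads (10.01 RPM) and was 5.84-fold lower (95% interval 5.17 to 6.62). MiR-466d-3p, the partner of *Itgam*, had only 90 reads (2.68 RPM) in the B6 library against 17 reads (0.567 RPM). Its ratio of 4.72 has a wide counting interval, from 2.79 to 8.45, and by B6 level it was the last of the 45 listed lower miRNAs. It shares its seed with the listed miR-466a-3p and miR-466e-3p, neither of which is paired with *Itgam*.

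The size of the miRNA difference and that of the mRNA difference did not run in the same order over the 5 genes. *Cd177*, with the highest mRNA ratio at 108, is paired with the miRNA of the smallest difference, 2.70-fold. *Cd300lf* and *Ceacam1* have the same partner, miR-125a-5p, and mRNA ratios of 3.97 and 10.4. That every mRNA is higher where its miRNA is lower is fixed by how the table was made. The pairs are predictions, and none was tested here.
Among the 25 higher mRNAs paired with miR-423-5p, *Cd177* had the highest ratio, beside a median of 5.16. *Itgam* was 4 of the 46 paired with miR-466d-3p, whose median ratio was 3.33, and 2 by its level in MRL/lpr. *Ceacam1* was 4 and *Cd300lf* 25 of the 43 paired with miR-125a-5p, whose median was 4.27. *Lyn* was 9 of the 33 paired with miR-150-5p, whose median was also 4.27. The gene at each median of 4.27 had at most 0.127 FPKM in either library, so these medians rest on little signal. All 5 genes have 1 paired miRNA, as do 324 of the 440 higher mRNAs (73.6%). The largest number for a higher mRNA was 7.

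**Figure D4:**
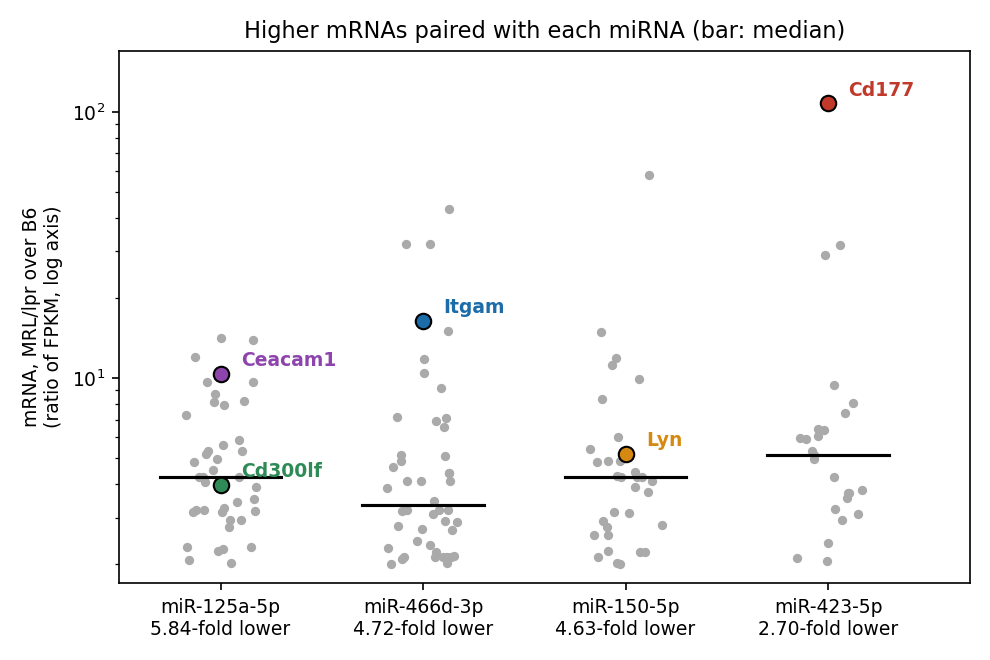
Ratio of MRL/lpr over B6 (vertical log axis) of the higher mRNAs paired with each of the 4 miRNAs, 1 point per mRNA, with a bar at the median and the 5 genes in colour. *Cd177* is the highest point of the 25 partners of miR-423-5p, the miRNA with the smallest difference, and *Cd300lf* lies next to the median of the 43 partners of miR-125a-5p.

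Other genes of adhesion and signalling were looked up in lists and in the deposited annotation. The 4 lists were neutrophil genes, leukocyte adhesion, receptors of myeloid cells (among them relatives of *Cd300lf* and *Ceacam1*), and Src family signalling. Of their 84 distinct genes, 1 was in the table of higher mRNAs and 0 in that of lower ones. Of the 652 mRNAs listed in either direction, 67.5% are higher. The 1 gene was *Vcam1*, a ligand of integrins on endothelial and stromal cells, with 8.92 FPKM in the B6 and 26.4 FPKM in the MRL/lpr library (2.95-fold). *Itgb2*, which encodes the partner chain of *Itgam*, was not among the listed mRNAs, nor were *S100a8*, *S100a9* and *Ly6g* of the neutrophil list or the Src family kinase gene *Fgr*. A gene outside the tables is not read as unchanged, since the tables hold only predicted targets of changed miRNAs with at least a 2-fold difference.
Markers of other cells that the preparation could hold were listed in both directions, and a gene had to differ at least 2-fold to be listed at all. The share to set beside each of these counts is again the 67.5% of the 652 listed mRNAs that are higher. Of the 14 genes of the monocyte and macrophage list, 4 were higher and 0 lower. *Cd68*, a lysosomal protein of macrophages, had 7.28 and 28.7 FPKM, *Msr1*, a scavenger receptor, 0.0230 and 4.56 FPKM, *Mertk*, a receptor for dying cells, 0.664 and 2.52 FPKM, and *Cx3cr1*, a chemokine receptor, 0.745 and 2.20 FPKM. Summed over these 4 genes the level was 8.72 FPKM in the B6 and 38.0 FPKM in the MRL/lpr library, a direction that the minimum fold of the table fixes. The other 10 genes of the list were not in the tables. MiR-223-3p, abundant in myeloid cells, had 7.94 RPM in the B6 against 215 RPM in the MRL/lpr library. It is in no list. As a miRNA higher in MRL/lpr it could not be paired with the 5 genes, since higher mRNAs were paired only with lower miRNAs. The paper reports it as higher in CD4+ T cells of MRL/lpr and B6/lpr than of B6 mice by quantitative PCR. Which cells its reads came from was not tested.
Of the erythroid and platelet list 2 of 9 genes were higher, *Ppbp* of platelets (0.0332 and 1.67 FPKM) and *Tfrc*, which dividing cells also make (15.9 and 37.9 FPKM). Of 9 genes of CD8 T cells and NK cells, *Klrd1* was lower, with 27.0 and 6.22 FPKM. None of the 6 dendritic cell, the 9 B and plasma cell and the 10 CD4 T cell genes was in the tables, so the labelled cell type could not be checked against these lists. Some T-lineage genes outside the lists, named after their values were seen, stood in the table of lower mRNAs. *Tcf7*, a transcription factor of T cells, had 473 and 157 FPKM, its relative *Lef1* 91.8 and 15.3 FPKM, *Themis*, a signalling protein of developing T cells, 33.0 and 11.4 FPKM, and *Txk*, a T cell kinase, 30.9 and 8.77 FPKM. Other genes that T cells can make, also named after their values were seen, were among the higher mRNAs. *Tnfrsf9* had 9.93 and 23.1 FPKM, *Crtam* 4.30 and 11.3 FPKM, and *Irf4* 10.1 and 35.4 FPKM. What either set says of the share of T cells in a library was not tested. The part of other cells in the levels of the 5 genes was not tested either.

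The 5 genes lie on 3 chromosomes, 3 of them on chromosome 7, which holds 34 of the 440 higher mRNAs (7.73%). *Cd177* and *Ceacam1* are 701 kb apart there, and *Itgam* lies far from both. In the deposited annotation all 5 carry the term membrane, as do 197 of the higher mRNAs (44.8%), and 4 carry plasma membrane, as do 115 (26.1%). *Itgam* alone of the 5 carries neutrophil chemotaxis, a term it shares with 2 other higher mRNAs, the chemokine genes *Cxcl2* and *Cxcl3*. *Lyn* alone carries inflammatory response, as do 18 higher mRNAs in all. *Itgam* also carries cell adhesion, as do 25 higher mRNAs in all with a median ratio of 4.31, and leukocyte cell-cell adhesion, as do 4 in all. The other members of the latter were *Olr1*, a scavenger receptor (147-fold), *Calca*, a peptide hormone gene (4.13-fold), and *Vcam1*.

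Promoter windows of 250 bases before and 50 bases from the transcription start were found for 4 of the 5 genes in RefSeq (GRCm38.p6). Myeloid genes are often bound near their start by PU.1, whose site holds the core GAGGAA. These letters, sought on both strands, were in all 4 windows, beside 28.3% of 32851 windows of all genes and 30.8% of 338 windows of higher mRNAs. The longer GAGGAAG, which contains the core, was in the windows of *Itgam* and *Cd300lf*, beside 13.6% of all windows. The C/EBP-type letters TTNNGNAA were also in all 4, beside 40.7% of all windows and 30.8% of those of higher mRNAs, and 1 of their matches in *Itgam* overlaps a core. TATAAA was in the window of *Cd177* on the strand of the gene and in that of *Cd300lf* on the opposite strand. It was in 13.6% of all windows and 9.76% of those of higher mRNAs. A match is a description of the letters and does not show binding, and the letters were chosen with these windows in view.
The windows of *Itgam* (plus strand, chr7:128062390-128062689), *Cd300lf* (minus strand, chr11:115133943-115134242) and *Cd177* (minus strand, chr7:24760262-24760561) are printed in the direction of transcription because the first pair hold the longer form and the last belongs to the gene with the highest ratio. Capitals mark GAGGAA on either strand, which reads TTCCTC on the opposite one.
Itgam: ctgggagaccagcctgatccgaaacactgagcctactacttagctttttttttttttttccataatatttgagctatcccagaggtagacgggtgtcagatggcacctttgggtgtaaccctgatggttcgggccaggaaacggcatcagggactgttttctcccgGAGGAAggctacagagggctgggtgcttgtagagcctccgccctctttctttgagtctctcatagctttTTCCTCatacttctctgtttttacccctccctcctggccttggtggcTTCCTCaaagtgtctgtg
Cd300lf: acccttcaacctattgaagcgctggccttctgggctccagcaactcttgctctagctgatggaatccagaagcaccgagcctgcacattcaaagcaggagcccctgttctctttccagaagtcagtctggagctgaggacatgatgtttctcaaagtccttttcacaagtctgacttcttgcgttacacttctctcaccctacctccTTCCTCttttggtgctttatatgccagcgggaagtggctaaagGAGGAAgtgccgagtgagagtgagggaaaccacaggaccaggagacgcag
Cd177: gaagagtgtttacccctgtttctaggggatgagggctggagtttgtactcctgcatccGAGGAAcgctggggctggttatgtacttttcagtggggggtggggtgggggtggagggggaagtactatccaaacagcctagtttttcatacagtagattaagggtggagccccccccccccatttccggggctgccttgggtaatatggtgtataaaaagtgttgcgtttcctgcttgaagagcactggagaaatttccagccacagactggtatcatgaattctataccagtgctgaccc
In *Itgam* the core stands on the strand of the gene from 84 bases before the start and on the opposite strand from 15 bases before it and from position 33. In *Cd300lf* it begins at the start itself and, on the opposite strand, 43 bases before it. The RefSeq gene *Cd300lf* reaches 1380 bases further upstream than this start, so these distances hold only for the start used here. In *Cd177* it begins 192 bases and in *Ceacam1* 112 bases before the start, once in each.

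**Figure D5:**
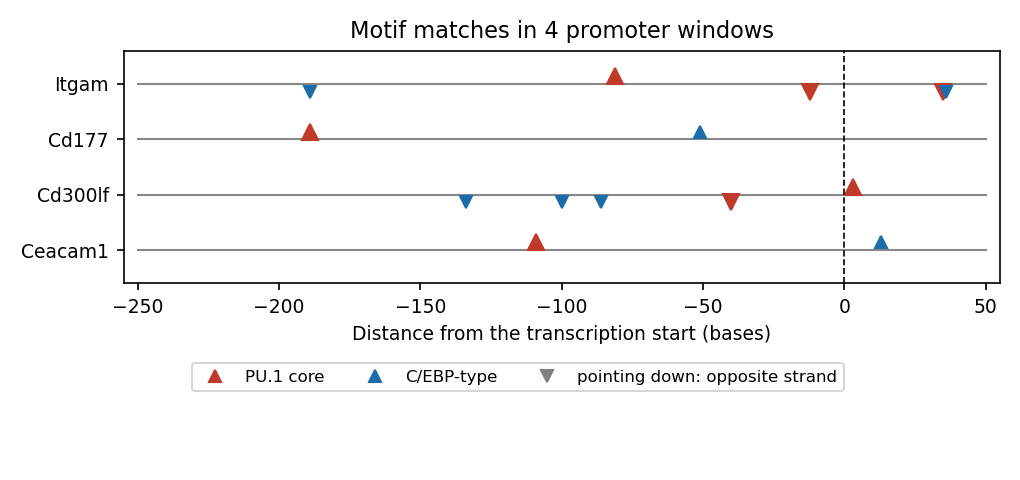
Positions of the PU.1 core (red) and the C/EBP-type letters (blue) in the promoter windows of 4 genes, by distance from the transcription start in bases, with triangles pointing down for the opposite strand. *Itgam* has 3 core matches, *Cd300lf* 2, and *Cd177* and *Ceacam1* 1 each.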

How the data were processed

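CD4+ T cells from the spleens of 1 mouse per strain were profiled, with 1 mRNA and 1 small RNA library each, although the design text speaks of 2 B6 mice. For mRNA, the authors deposited values called raw, taken here as FPKM from the Cuffdiff-like column names. For miRNAs, the authors deposited the read counts and RPM, the reads over 33634335 (B6) and 29971024 (MRL/lpr) trimmed reads. The listed miRNAs differ at least 2-fold and have at least 100 reads over both libraries. The aligner, the build and the miRNA and gene annotations were not given in the sources used here. Ratios, p-values, q-values and test statistics of the authors' own comparison were not used.

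Gene positions are those of the table, counted from 1. They lie within 1380 bases of RefSeq GRCm38.p6. A second set of positions in the table, which appears to be of another build that is not named, gave only the length of the region. Ratios were computed with no value added, in Python 3.11.15 with NumPy 2.4.6, pandas 2.3.3, SciPy 1.17.1 and Matplotlib 3.10.9. Depth of the mRNA libraries is not given. Of 74 genes under 0.1 FPKM in both libraries, 60 had ratios of small whole numbers (adding up to 40 or less, tolerance 3e-05) after division by 1.07. Fragment numbers cannot be had from this, so mRNA values carry no interval. The interval procedure was tested on simulated counts.

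The 5 genes and all lists were chosen with earlier results of these data known. Named are the 5 genes, their miRNAs, for each the 2 nearest genes and the neighbours by ratio, and the listed genes of the lists. *Itgb2*, *S100a8*, *S100a9*, *Ly6g* and *Fgr* were named after their absence was seen, *Tcf7*, *Lef1*, *Themis* and *Txk* after their values were seen, and *Cxcl2*, *Cxcl3*, *Olr1*, *Calca* and the genes of the closing paragraphs by their annotation. List genes were matched by symbol or RefSeq gene ID, and 2 symbols of the receptor list were not found in RefSeq. Alternatives were added values, minimum levels, other thresholds and other scalings. Other experiments of the study were not analysed here.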

Additional observations from a re-analysis of the deposited data

How the results depend on the processing

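With 1 library per strain and assay no sample could be left out and no replicate spread is known. No paired analysis was possible because each strain has 1 library per assay and no result comes from a test. All 15 log2 ratios of the 5 genes under the alternatives were higher in MRL/lpr, which the choice of genes nearly fixes and which is no sign of stability. With 0.1 FPKM added, with 1 FPKM added, and with both libraries scaled to the sum of the listed mRNAs (an alternative chosen after seeing the data, which divides every ratio by 1.40), the log2 ratio of *Itgam* was 3.96, 3.43 and 3.56. In the same order it was 6.46, 5.09 and 6.27 for *Cd177*, 1.94, 1.62 and 1.51 for *Cd300lf*, 3.07, 1.81 and 2.90 for *Ceacam1*, and 2.35, 2.12 and 1.89 for *Lyn*. The ranks by ratio with 0.1 FPKM added, with 1 FPKM added and among genes of at least 1 FPKM in MRL/lpr were 10, 2 and 21 for *Itgam*, 1, 1 and 4 for *Cd177*, and 146, 81 and 134 for *Cd300lf*. They were 32, 63 and 31 for *Ceacam1* and 88, 38 and 87 for *Lyn*. The count of genes at least 4-fold higher was 3 in place of 4 with 1 FPKM added and under the scaling to sums. No list count differed with a minimum of 1 FPKM. The number of paired miRNAs was 0 for *Itgam* with a minimum of 1000 reads and 0 for *Cd177* when a miRNA had to be at least 4-fold lower. With 10 RPM added, the fold by which the miRNA was lower was 3.42 for miR-125a-5p, 2.58 for miR-423-5p and 1.20 for miR-466d-3p. Scaled to the miRNA totals, which were 1.20 times as high in MRL/lpr, it was 7.02 for miR-125a-5p, 5.57 for miR-150-5p and 3.25 for miR-423-5p. Among further limits are the low B6 levels of *Cd177* and *Ceacam1* and the few reads of miR-466d-3p.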

Other observations

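Other inflammatory genes stood beside *Lyn* in the table of higher mRNAs. Of the 18 annotated to inflammatory response, 12 were at least 4-fold higher, beside 219 of all 440 (49.8%), and the median ratio was 5.26, beside 3.98 over all 440. Genes of the term that were not higher are not in this table. *Cxcl2*, a chemokine that attracts neutrophils and also carries the term neutrophil chemotaxis with *Itgam*, had 6.26 FPKM in the B6 and 74.4 FPKM in the MRL/lpr library (11.9-fold). *Tnf*, an inflammatory cytokine, had 16.6 and 68.4 FPKM (4.12-fold), and *Cxcl10*, an interferon-induced chemokine, 12.3 and 41.9 FPKM (3.41-fold). *Cxcl3*, a relative of *Cxcl2*, had only 0.108 and 0.423 FPKM. *Clec4e*, a macrophage receptor for mycobacterial glycolipid, had 0.187 and 7.66 FPKM (40.9-fold). This was the highest ratio of the 11 higher mRNAs annotated to immune response, whose median ratio was 4.12, and 7 of them were at least 4-fold higher. None of the 5 genes carries that term.

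*Itgam* shares the term integrin-mediated signalling with *Adam8* and *Adam9*, membrane proteases with a disintegrin domain. *Adam8* had 3.64 and 11.2 FPKM (3.06-fold) and *Adam9* 1.99 and 6.08 FPKM (3.05-fold), both well below the 16.5-fold of *Itgam*. The values of these genes are single libraries, and no difference between strains was tested.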
